A study of Mus musculus with 24 samples.

Results

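Granulocyte monocyte progenitors (GMP) that carried the fusion oncogene AML1-ETO were compared with GMP that carried an empty GFP vector. The members were the samples titled AE-GMP 1 to 4 and GMP GFP 1 to 3, which are 7 of the 24 arrays of the series. All 7 held RNA of C57BL/6 mouse GMP that had been spin-infected, taken as GFP-positive cells 36 hours afterwards, and amplified before labelling. The 4 AML1-ETO samples are called AE GMP here and the 3 vector samples GFP GMP, and GFP marked infected cells in both. Further arrays serve for comparison: GMP infected with MOZ-TIF2 (MT2 GMP, 4 arrays) or with NUP98-HOXA9 (NHA9 GMP, 3 arrays), harvested at the same time, and uninfected sorted LSK cells, the marrow fraction that holds the blood stem cells (3 arrays titled HSC), and uninfected sorted GMP (4 arrays). The labels do not say whether replicates came from separate mice, cultures or infections, so the p-values reflect only how these samples vary, and that variation may be technical. They do not give the promoter that drives the oncogene or its level.

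GMP are bone marrow progenitors that give rise to neutrophils and monocytes. AML1-ETO is the product of a chromosome translocation found in acute myeloid leukemia. It joins the DNA-binding Runt domain of RUNX1 (AML1) to most of ETO (RUNX1T1), a protein that recruits corepressors and histone deacetylases. RUNX1 normally binds the sequence TGTGGT together with its partner CBFB and is needed for blood stem cells to form and for several myeloid genes to be expressed. The fusion is known for occupying RUNX sites, for lowering the granulocyte factor C/EBPa and for keeping progenitors growing in culture, while further mutations are needed for leukemia.

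Promoter stretches are shown for 6 genes among the 15 largest increases and 15 largest decreases, chosen because each holds a motif of interest. Each is given as the 150 bases before the RefSeq transcription start (build GRCm38.p6), 5′ to 3′ on the strand of the gene. In the first 3, all of genes that rose, capitals mark TGANTCA, a loose form of the AP-1 motif with any base in the middle. In Cxcl2, which also rose, they mark a form of the NF-kB motif (GGG, any 2 bases, then TTTCC). In Ifitm6 and Tspan32, which fell, they mark the RUNX motif TGTGGT or, where it lies on the other strand, ACCACA.
Serpinb2, chr1:107511273-107511422, plus strand: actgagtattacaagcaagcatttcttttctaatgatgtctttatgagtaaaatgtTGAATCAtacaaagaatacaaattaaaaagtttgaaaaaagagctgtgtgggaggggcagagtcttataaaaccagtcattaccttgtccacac
Ctla2a, chr13:60936626-60936775, minus strand: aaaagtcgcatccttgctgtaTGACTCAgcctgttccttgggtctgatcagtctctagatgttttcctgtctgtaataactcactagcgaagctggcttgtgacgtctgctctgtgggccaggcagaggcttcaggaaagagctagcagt
Ctla2b, chr13:60897448-60897597, minus strand: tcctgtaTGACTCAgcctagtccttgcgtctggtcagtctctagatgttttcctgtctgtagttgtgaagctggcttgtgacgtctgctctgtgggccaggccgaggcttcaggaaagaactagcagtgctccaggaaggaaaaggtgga
Cxcl2, chr5:90903749-90903898, plus strand: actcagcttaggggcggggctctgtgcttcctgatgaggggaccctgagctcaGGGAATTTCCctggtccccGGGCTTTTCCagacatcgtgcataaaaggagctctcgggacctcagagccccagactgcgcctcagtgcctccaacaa
Ifitm6, chr7:141016893-141017042, minus strand: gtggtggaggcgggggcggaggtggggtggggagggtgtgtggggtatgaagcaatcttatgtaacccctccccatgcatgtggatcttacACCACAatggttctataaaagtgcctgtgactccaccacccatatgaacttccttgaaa
Tspan32, chr7:143004896-143005045, plus strand: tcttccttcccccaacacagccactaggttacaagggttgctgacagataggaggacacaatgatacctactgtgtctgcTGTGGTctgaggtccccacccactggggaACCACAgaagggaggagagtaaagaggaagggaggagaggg

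The motif begins 94 bases before the start in Serpinb2, 129 in Ctla2a and 143 in Ctla2b. Cxcl2 holds its motif 97 and 78 bases before the start, Ifitm6 holds TGTGGT 59 bases before it, and Tspan32 holds it 70 and 41 bases before it. Ctla2a and Ctla2b are close copies: their full windows of 300 bases were identical in 255 of 286 aligned positions (89.2%), and whether the probes of either read the other was not tested. Over these RefSeq windows of 300 bases, most of them upstream, and on both strands, TGTGGT occurred in 17% of 135 genes that fell (23), in 8.73% of 573 that rose (50), in 11.8% of 5889 tested genes and in 16.9% of all 27025 windows. TGANTCA occurred in 8.89% of the genes that fell (12), 6.81% of those that rose (39), 4.86% of tested genes and 7.93% of all windows. This NF-kB motif occurred in 1.48% (2), 2.09% (12), 1.6% and 1.62% of the same sets. Of the 12 largest increases with a window, 4 hold TGANTCA (Ppbp is the fourth), 1 holds the NF-kB motif and 0 hold TGTGGT. Pf4, Dab2 and Il1b, for example, are thus not shown. Of the 11 largest decreases with a window, 2 hold TGTGGT, 3 hold TGANTCA (Cd244a, Ffar2 and Fam107b, not shown) and 0 hold the NF-kB motif. These matches describe the letters in a window and carry no test.

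Levels are given on the log2 scale, with the SD across the arrays of a group, and differences are AE minus GFP on the log2 scale with their standard error (SE). The 4 AE arrays had 47.4% to 48.3% of probe sets above a level of 60 (5.91 on the log2 scale), the background level of the study, and the 3 GFP arrays 46.8% to 47.0%. The labelled cell type was checked first: all 11 GMP markers on the array, among them Mpo, Elane, Ms4a3 and Csf1r, lay above 60 in both groups, with a summed level of 15.57 to 15.82 on AE arrays and 15.87 to 15.97 on GFP arrays. Files carry a tag in their names that splits the arrays: AE 1 and all GFP arrays have tag A, while AE 2, 3 and 4 have tag B. AE 1 stood apart. On the first principal component of the 7 arrays (51.1% of the variance) it lay at −3.4, against −30.1 to −25.7 for the other AE arrays and 24.7 to 34.1 for GFP arrays, and on the second (24.9%) it lay at 43.6, against −10.8 to −6.5 and −11.8 to 2.0. The array number and these tags limit every value below.

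At an adjusted p of 0.05, 862 of 7121 tested genes (12.1%) differed, 689 (9.68%) higher and 173 (2.43%) lower in AE GMP, around a median difference of 0.10 over all tested genes. Over 11393 probe sets, 997 (8.75%) were higher and 252 (2.21%) lower. Arrays of the groups did not overlap for 1992 genes (28%), of which 1497 (21%) were higher and 495 (6.95%) lower in AE GMP. The split between directions moved with the tag: a fit of all 24 arrays that included the tag as a factor gave 410 genes higher (5.76%) and 458 lower (6.43%), and within tag A, where AE 1 alone stands for the oncogene, 497 were higher (6.98%) and 695 lower (9.76%). Without AE 1, 1488 were higher (21%) and 528 lower (7.45%). Quantile normalization, which moves the median difference to −0.01, gave 475 higher and 315 lower. Shares of the lists below are to be read beside the 9.68% of all tested genes that were higher and the 2.43% that were lower. The one AE array within tag A is also among those that chose the called genes, so that a call there is a description and no replication. The p-values within tag A take their spread from the 3 GFP arrays and none from AE samples. The fit with the tag as a factor takes its spread from all 24 arrays. A call can thus be lost in that fit without a smaller difference. Of the 689 genes that rose, 337 passed also within tag A, 348 with the tag as a factor and 688 without AE 1. Of the 173 that fell, 120, 126 and 173 did, and every gene of both sets that was measured there kept its sign within tag A. Of all called genes, 164 higher and 47 lower ones passed with each array left out in turn. Leaving out GFP 2 cost most and left 231 genes, against 310 without GFP 1 and 488 without GFP 3, and 497 and 516 without AE 2 and AE 3.

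**Figure D1:**
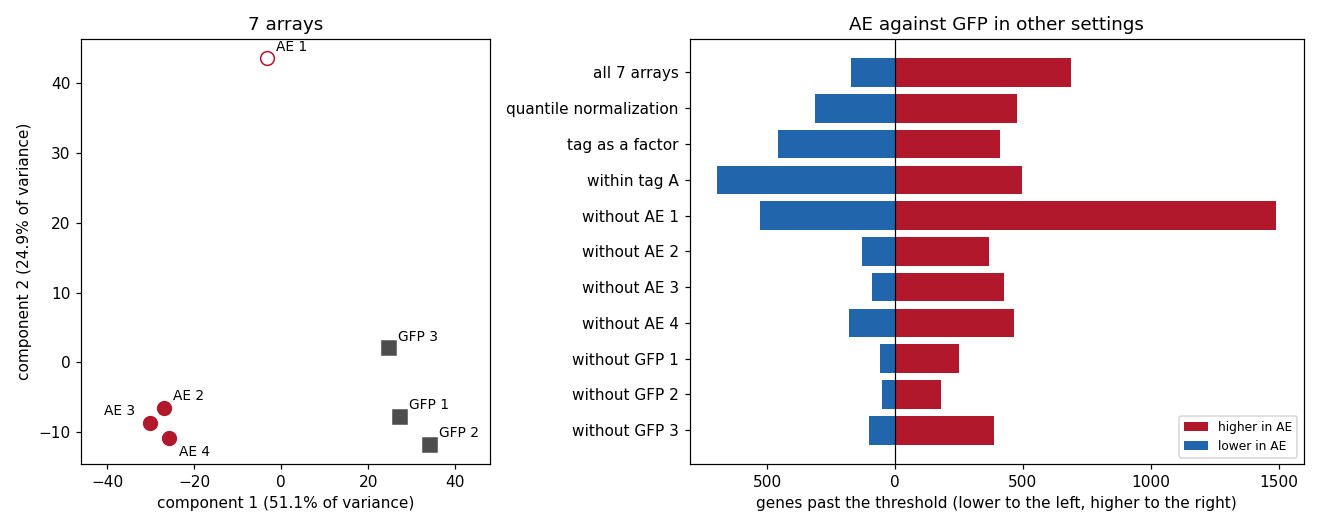
Left, the 7 arrays on the first 2 principal components of the tested probe sets (component scores, with the percent of variance on each axis), AE arrays as circles with AE 1 open and GFP arrays as squares. Right, the number of genes past the threshold with all 7 arrays and in other settings, those higher in AE GMP drawn to the right of 0 and those lower to the left. AE 1 lies apart at 43.6 on component 2, and the bars run between 180 and 1488 genes to the right.

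Genes that make up the fusion were read first, as a check of the labels. Runx1, whose 5′ part is in the fusion, gave 7.05, 8.02, 8.33 and 7.88 on AE arrays, against 7.23, 7.08 and 6.91 on GFP arrays, a difference of 0.75 (SE 0.27, adjusted p = 0.101). A second tested probe set of Runx1 averaged 6.65 in AE GMP and 5.71 in GFP GMP, a difference of 0.94 (SE 0.15, adjusted p = 0.00547), and another averaged 5.88 and 6.09. Within tag A the first of them differed by −0.02. Runx1t1, which encodes ETO, lay between 3.23 and 3.46 on AE arrays and between 3.32 and 3.57 on GFP arrays, far under 60. Whether any of these probe sets can read the transcript of the vector was not tested, so they do not check the labels. The other partner genes tested did not pass: Cbfb, the RUNX partner, differed by −0.34 (SE 0.17, adjusted p = 0.231), Runx3 by −0.49 (SE 0.25, adjusted p = 0.231), and Kat6a, Nup98 and Hoxa9, partners in the other fusions of the study, by 0.14, 0.30 and −0.44. Among 8 tested corepressor genes of the ETO complex, 1 rose and 1 fell, beside 9.68% and 2.43% of all tested genes. Sin3b rose by 0.74 and Cbfa2t3, the ETO relative of blood cells, fell to 6.55 ± 0.21 in AE GMP (SD, n = 4), against 7.32 ± 0.07 in GFP GMP (SD, n = 3). Both calls depended on single GFP arrays, with an adjusted p up to 0.181 for Sin3b and 0.0730 for Cbfa2t3 without GFP 2. Within tag A the adjusted p of Cbfa2t3 was 0.0683.

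The next genes are the 15 with the largest increases and the 15 with the largest decreases among called genes whose groups do not overlap, so the lack of overlap in them is no result. Serpinb2, an inhibitor of urokinase also known as plasminogen activator inhibitor 2, gave 6.73, 9.34, 9.91 and 10.03 on AE arrays, against 3.13, 3.36 and 2.86 on GFP arrays. It was thus below background in GFP GMP and above it on every AE array, lowest on AE 1, and the difference was 5.89 (SE 0.67, adjusted p = 0.00154). Since the GFP level was under 60, the fold is at least 8.55. Ctla2a, which resembles the propeptide of cysteine proteases and inhibits cathepsin L, gave 7.72, 9.67, 10.05 and 10.40 on AE arrays, against 4.89, 4.65 and 4.58 on GFP arrays, at least 11.7-fold higher (adjusted p = 0.00154). Its copy Ctla2b gave 8.74, 9.96, 10.46 and 10.50 on AE arrays and 6.23, 5.64 and 6.18 on GFP arrays, 14.9-fold higher (adjusted p = 0.00116). For these 3 genes AE 1 was the lowest of the AE arrays. Tpbpb, which lies between the Ctla2 genes, was below 60 on all 7 arrays. Serpinb8, the next measured neighbour of Serpinb2 on chromosome 1 and named after its values were seen, gave 5.39, 6.64, 7.19 and 6.07 on AE arrays, against 3.84, 4.03 and 3.64 on GFP arrays, at least 1.33-fold higher (adjusted p = 0.00324), while Serpinb7 on the other side lay between 2.72 and 3.59 on all 7.

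Among chemokine genes, Cxcl2, a ligand of Cxcr2 that draws neutrophils, gave 8.22, 10.40, 10.62 and 9.33 on AE arrays, against 5.89, 4.84 and 4.72 on GFP arrays, at least 13.3-fold higher (adjusted p = 0.00176). Ppbp, the precursor of the platelet chemokine NAP-2, gave 9.64, 11.88, 10.94 and 12.09 on AE arrays, against 6.78, 7.75 and 5.60 on GFP arrays (difference 4.42, SE 0.61, adjusted p = 0.00297). Pf4, platelet factor 4, gave 10.81, 11.95, 11.36 and 12.17 on AE arrays and 8.52, 8.93 and 7.90 on GFP arrays (difference 3.12, SE 0.34, adjusted p = 0.00154). Cxcl2, Ppbp and Pf4 lie in 1 block on chromosome 5 with Cxcl5, Cxcl15 and Cxcl1, and these neighbours stayed below the filter, with a single value above 60 (Cxcl5 on AE 4, 6.21). Il1b, the inflammatory cytokine interleukin 1 beta, gave 7.44, 8.72, 9.47 and 8.69 on AE arrays, against 5.44, 5.96 and 5.23 on GFP arrays, at least 6.37-fold higher (adjusted p = 0.00245). Over the 9 tested chemokine genes 4 rose and 1 fell, beside 9.68% and 2.43% of all tested genes. The fourth that rose was the interferon-induced Cxcl10, and the one that fell was Ccl9. The median of the 9 was 0.69, beside 0.10 over all genes. Cxcl10 averaged 6.70 ± 0.60 in AE GMP and 5.20 ± 0.47 in GFP GMP, and its adjusted p of 0.0188 was 0.0787 without GFP 2. Ccl9 averaged 8.93 ± 0.55 in AE GMP and 10.10 ± 0.25 in GFP GMP, with an adjusted p of 0.0267 that was 0.110 without GFP 1. Within tag A, 3 chemokine genes were called higher and 1 lower.

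The other large increases covered several functions. Arg1, the enzyme that turns arginine into ornithine and a mark of alternatively activated macrophages, gave 11.24, 12.06, 12.29 and 12.56 on AE arrays, against 9.45, 7.64 and 8.39 on GFP arrays, 11.7-fold higher (SE of the log2 difference 0.41, adjusted p = 0.00173). Cd14, the coreceptor for lipopolysaccharide, gave 9.28, 11.11, 11.31 and 10.35 on AE arrays and 8.01, 7.27 and 8.12 on GFP arrays, 6.57-fold higher (adjusted p = 0.00562). Dab2, an endocytic adaptor, gave 8.99, 9.69, 9.94 and 10.25 on AE arrays and 7.27, 6.48 and 6.24 on GFP arrays, 8.28-fold higher (adjusted p = 0.00137). AE 1 was the lowest AE array for each of these 3 genes. The zinc importer gene Slc39a4 averaged 8.82 ± 0.45 in AE GMP and 5.91 ± 0.05 in GFP GMP. Itm2a, a membrane protein gene, averaged 8.55 ± 0.89 and 5.72 ± 0.15, and 1 of its 2 tested probe sets rose. Gpx3, a secreted glutathione peroxidase, averaged 9.49 ± 0.82 in AE GMP, against 6.80 ± 0.23 in GFP GMP, and Gadd45g, a stress gene, 9.86 ± 0.51 against 7.19 ± 0.20. Ptprf, a receptor tyrosine phosphatase, averaged 7.96 ± 0.42 in AE GMP and 5.31 ± 0.04 in GFP GMP, at least 4.15-fold higher (adjusted p = 0.00115). All 15 of the largest increases passed with each array left out and with the tag as a factor. On AE 1 alone the differences were smaller, for example 1.49 for Cd14 and 2.75 for Arg1.

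**Figure D2:**
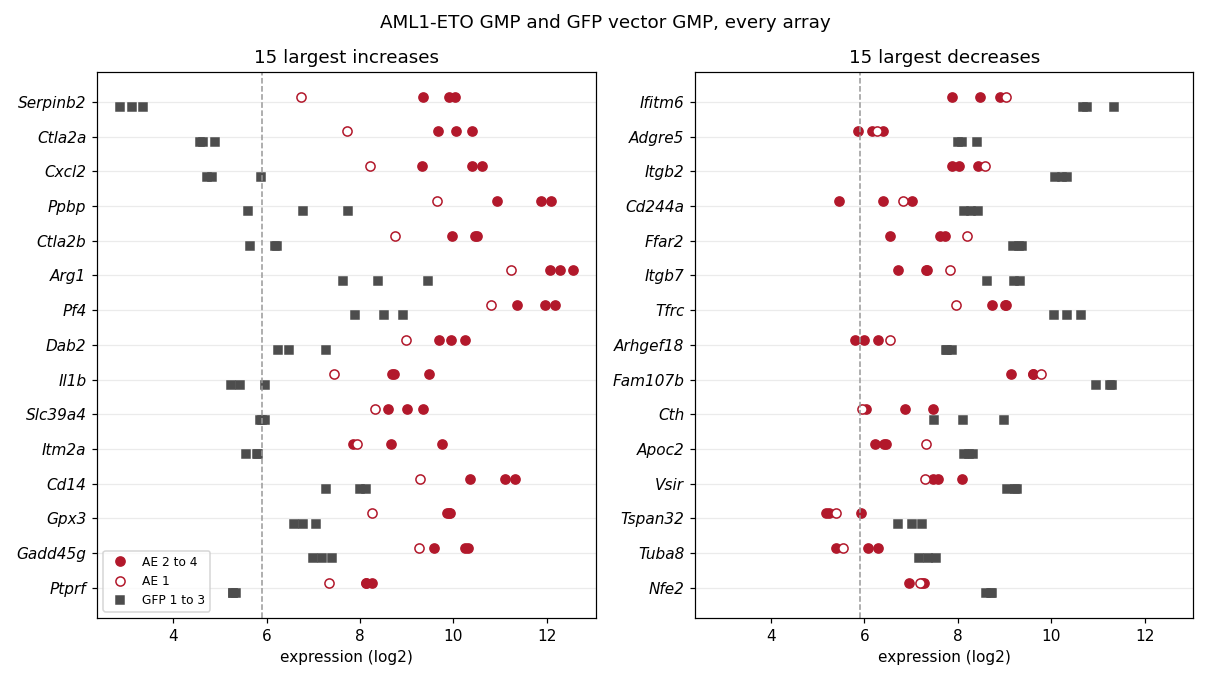
Log2 expression on every array for the 15 largest increases (left) and the 15 largest decreases (right) among genes past the threshold whose groups do not overlap, AE arrays as red circles with AE 1 open and GFP arrays as grey squares. The dashed line is the background level of 5.91. AE 1 is the closest AE array to the GFP arrays for 14 of the increases, as in Serpinb2 at 6.73, and is the closest for 7 of the decreases.

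The 15 largest decreases had log2 differences of −2.36 for Ifitm6 to −1.52 for Nfe2. Itgb2, the common beta chain (CD18) of leukocyte integrins, gave 8.58, 8.44, 7.88 and 8.02 on AE arrays, against 10.23, 10.09 and 10.33 on GFP arrays (difference −1.99, SE 0.19, adjusted p = 0.00115). Adgre5, the adhesion receptor CD97, gave 6.28, 6.39, 5.87 and 6.16 on AE arrays and 8.10, 8.00 and 8.42 on GFP arrays, 3.99-fold lower (adjusted p = 0.00115). Itgb7, the partner of the alpha 4 chain in gut homing, gave 7.83, 7.34, 7.33 and 6.71 on AE arrays and 8.62, 9.33 and 9.20 on GFP arrays (difference −1.75, SE 0.26, adjusted p = 0.00411). AE 1 was the highest AE array for Itgb2 and Itgb7, closest to the GFP arrays. The interferon-inducible membrane protein gene Ifitm6 gave 9.03, 8.91, 8.47 and 7.88 on AE arrays, against 10.68, 11.35 and 10.76 on GFP arrays (difference −2.36, SE 0.28, adjusted p = 0.00176). Cd244a, a SLAM family receptor, averaged 6.43 ± 0.70 in AE GMP and 8.29 ± 0.15 in GFP GMP. Vsir, an immune checkpoint protein gene, averaged 7.61 ± 0.35 and 9.18 ± 0.11, and Tspan32, a tetraspanin gene, fell to 5.44 ± 0.34 in AE GMP, below background, against 6.98 ± 0.26 in GFP GMP, at least 2.11-fold lower. Ffar2, a receptor for short-chain fatty acids, averaged 7.52 ± 0.70 in AE GMP and 9.29 ± 0.09 in GFP GMP, and its adjusted p of 0.00917 was 0.0519 without GFP 2. Nfe2, a transcription factor of megakaryocytes and red cells, gave 7.19, 7.24, 6.96 and 7.28 on AE arrays, against 8.73, 8.61 and 8.72 on GFP arrays (difference −1.52, SE 0.14, adjusted p = 0.00115).

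The remaining large decreases included Fam107b (9.53 ± 0.28 in AE GMP against 11.16 ± 0.19 in GFP GMP), Apoc2, an apolipoprotein (6.62 ± 0.49 against 8.23 ± 0.10), Tuba8, an alpha tubulin, and Cth, which makes cysteine from cystathionine. Cth gave 5.95, 6.88, 6.04 and 7.48 on AE arrays and 8.98, 7.50 and 8.11 on GFP arrays, so that AE 4 came within 0.02 of GFP 2, and its adjusted p of 0.0380 was 0.147 without GFP 1. With the tag as a factor, Cd244a (adjusted p = 0.0857), Ffar2 (0.0536), Apoc2 (0.123) and Tuba8 (0.0609) of these 15 were not called. Cd244a differed by −2.16 (SE 0.80) in that fit and −1.86 (SE 0.32) in the main fit, and Tuba8 by −1.73 (SE 0.58) and −1.52 (SE 0.23). For Ffar2 the differences were −1.67 and −1.77, and for Apoc2 −1.02 and −1.61.

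NF-kB is a family of transcription factors that inflammatory signals release into the nucleus, where they induce chemokines, cytokines and their own inhibitors. Of 12 tested genes of its subunits and regulators, 5 rose and 0 fell, beside 9.68% and 2.43% of all genes, with a median of 0.34. Relb, a subunit of the noncanonical pathway, gave 7.94, 7.75, 8.02 and 7.19 on AE arrays, against 5.38, 5.36 and 5.77 on GFP arrays, at least 3.53-fold higher (adjusted p = 0.00115). Rela, the main activating subunit, gave 8.94, 8.47, 8.66 and 8.53 on AE arrays and 7.71, 7.73 and 7.76 on GFP arrays (difference 0.91, SE 0.15, adjusted p = 0.00635). Tnip1, an inhibitor of the pathway, gave 9.81, 9.70, 9.72 and 9.70 on AE arrays and 8.66, 8.52 and 8.81 on GFP arrays (difference 1.07, SE 0.13, adjusted p = 0.00205). For these 3 genes AE 1 was as high as the other AE arrays, and within tag A the differences were 2.43, 1.20 and 1.15. Bcl3, a coactivator of the family, rose by 0.85 (adjusted p = 0.00977, 0.0609 without GFP 1), and Birc3, a ubiquitin ligase, by 0.71 (adjusted p = 0.0318, 0.147 without GFP 1). Nfkbia, the classical inhibitor, differed by 0.10 (adjusted p = 0.768) and Nfkb2 by −0.10 (adjusted p = 0.769). Over leave-outs of single arrays 3 to 5 of the genes were higher, and within tag A and with the tag as a factor 4 were.

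Immediate early genes, which cells switch on within minutes of a stimulus, were higher in part. Of 23 tested, 9 rose and 1 fell, against 9.68% and 2.43% of all tested genes, with a median of 0.53. Jun, a subunit of AP-1, gave 8.26, 9.01, 9.31 and 8.43 on AE arrays, against 7.24, 6.51 and 6.75 on GFP arrays (difference 1.92, SE 0.27, adjusted p = 0.0032). Klf6, a zinc finger factor, gave 8.78, 8.80, 9.29 and 9.04 on AE arrays and 7.47, 7.44 and 7.20 on GFP arrays, 3.05-fold higher (adjusted p = 0.00137). AE 1 was the lowest AE array for both genes, although close to AE 2 (8.80) for Klf6. Ppp1r15a, which reverses the translational stress response, rose by 0.97 (adjusted p = 0.00634), Ier2 by 1.10, Junb by 1.38 and Jund by 0.83. Egr2, a macrophage factor, gave 4.24, 5.82, 6.38 and 5.93 on AE arrays, against 3.67, 4.11 and 4.05 on GFP arrays (adjusted p = 0.0363). Both of its group means, 5.59 in AE GMP and 3.94 in GFP GMP, lay under background, and it passed the filter through AE 3 and AE 4. Its value on AE 1 was near those of GFP arrays, and within tag A the adjusted p was 0.375. Fos gave 8.47, 10.35, 11.04 and 9.22 on AE arrays and 9.65, 7.66 and 8.41 on GFP arrays, and Egr1 gave 6.44, 8.77, 8.83 and 6.75 on AE arrays and 6.52, 5.00 and 5.79 on GFP arrays. The groups overlapped for both, and neither passed (adjusted p = 0.228 for Fos and 0.0712 for Egr1). Without GFP 2 the adjusted p of Ier2, Junb and Jund was 0.0952, 0.118 and 0.121, and without GFP 1 that of Egr2 was 0.132. Without GFP 2, 3 genes of the list were called higher, without AE 1 13 were, and with the tag as a factor 5, Klf6 (adjusted p = 0.0814) not among them. With the tag as a factor Klf6 differed by 1.77 (SE 0.65), against 1.61 (SE 0.17) over the 7 arrays.

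A list of feedback inhibitors, which damp the MAP kinase and JAK-STAT pathways after a signal, had 11 tested genes. Of them 5 were higher and 0 lower, against 9.68% and 2.43% of all tested genes, with a median of 0.70. With the tag as a factor 1 of the 11 was called higher. Gadd45g, a stress gene kept in this list and not such an inhibitor, had the largest difference of the called members. It gave 9.27, 10.32, 10.25 and 9.59 on AE arrays, against 7.18, 7.00 and 7.40 on GFP arrays (difference 2.66, SE 0.26, adjusted p = 0.00115). Dusp1 and Dusp2, phosphatases of MAP kinases, rose by 1.49 (SE 0.36, adjusted p = 0.0309) and 1.67 (SE 0.44, adjusted p = 0.0408), but on AE 1 they read 6.78 and 6.84, against highest GFP values of 6.65 and 6.86. Without GFP 2 their adjusted p was 0.151 and 0.161. Spred1 and Spry2, inhibitors of Ras signalling, rose by 0.76 and 0.70, with an adjusted p of 0.0561 and 0.137 without GFP 2, and of 0.0941 and 0.703 with the tag as a factor. Dusp6, a target of ERK, differed by 0.40 (adjusted p = 0.473) and Socs3, a target of STAT3, by 0.45 (adjusted p = 0.187). Without GFP 2 Gadd45g alone of the list passed.

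**Figure D3:**
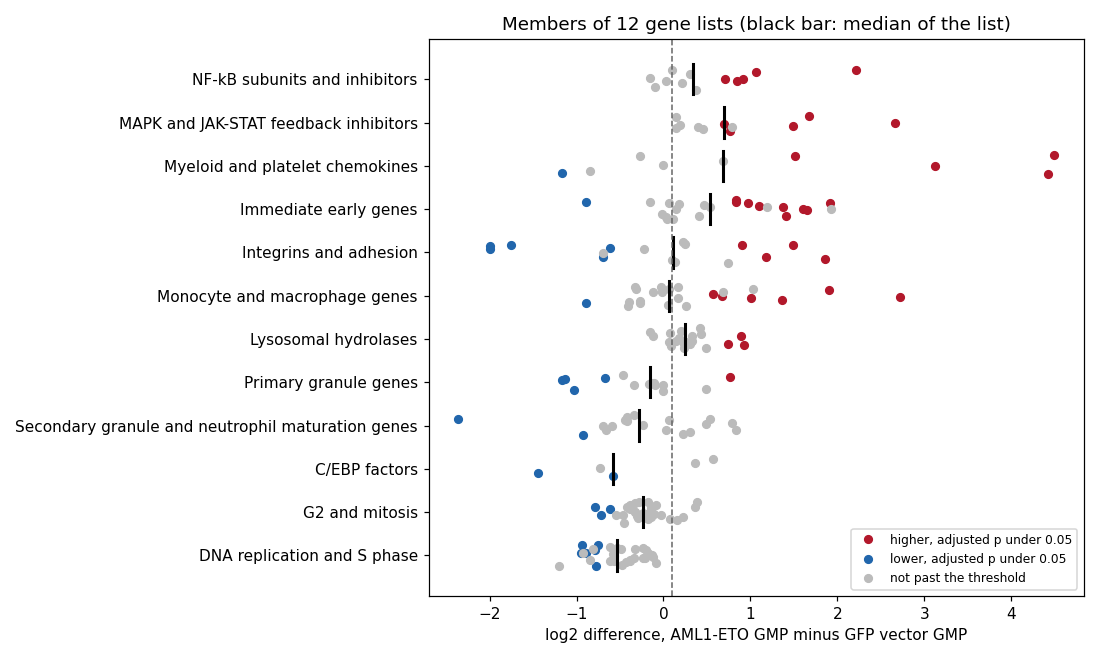
Log2 difference, AE GMP minus GFP GMP, of each tested member of 12 gene lists, coloured by whether it passed the threshold; the black bar is the median of the list and the dashed line the median over all tested genes, 0.10. Feedback inhibitors have the highest of the 12 medians, 0.70, C/EBP factors the lowest, −0.58, and all members of the S phase list at the bottom lie below 0.

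Receptors changed singly. Of 20 tested cytokine receptor genes 4 rose (20%) and 1 fell (5%), beside 9.68% and 2.43% of all tested genes. Csf1r, the receptor for the monocyte growth factor M-CSF, gave 13.15, 13.18, 13.29 and 13.02 on AE arrays, against 12.44, 12.60 and 12.44 on GFP arrays (difference 0.67, SE 0.14, adjusted p = 0.0145, 0.0826 without GFP 1). Ifnar1, a chain of the type I interferon receptor, rose by 1.05 (adjusted p = 0.012, 0.0705 without GFP 2), and Il7r, below background in GFP GMP, was at least 1.15-fold higher (adjusted p = 0.0179, 0.0981 without GFP 2). Tnfrsf1a, the main TNF receptor, rose by 0.48 (adjusted p = 0.0442), and Il1r2, the decoy receptor for interleukin 1, fell to 6.98 ± 0.62 in AE GMP, against 8.43 ± 0.56 in GFP GMP (adjusted p = 0.0285). Without GFP 2 their adjusted p was 0.178 and 0.123, and neither passed within tag A. Kit, the stem cell factor receptor, averaged lower in AE GMP by 0.72 (adjusted p = 0.0714), and Flt3 differed by −0.08.

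Of 10 tested chemoattractant receptor genes Ptger2 and Ptger4 rose and Ffar2 fell. Of 5 tested genes of prostaglandin and leukotriene metabolism and signalling Ptgir rose and Lta4h fell. The shares of all tested genes were 9.68% higher and 2.43% lower. Ptger4, the EP4 receptor for prostaglandin E2, gave 8.29, 8.77, 8.62 and 8.18 on AE arrays, against 7.33, 6.97 and 6.78 on GFP arrays (difference 1.44, SE 0.19, adjusted p = 0.00278). Ptger2, the EP2 receptor, gave 7.05, 7.51, 7.86 and 7.34 on AE arrays and 6.45, 6.17 and 5.97 on GFP arrays (difference 1.24, SE 0.21, adjusted p = 0.00634). Ptgir, the prostacyclin receptor, gave 6.29, 6.97, 7.37 and 7.54 on AE arrays and 5.62, 5.42 and 5.53 on GFP arrays, at least 2.19-fold higher (adjusted p = 0.0083). All 3 receptors were higher on every AE array than on any GFP array, as were 21% of all tested genes. They passed with each array left out. Within tag A the differences of Ptger4, Ptger2 and Ptgir were 1.26, 0.86 and 0.77. With the tag as a factor Ptger2 (adjusted p = 0.188) and Ptgir (0.0624) did not pass. Lta4h, which makes leukotriene B4, fell by 0.59 (adjusted p = 0.0497, 0.173 without GFP 1). Tnfsf9, the ligand of 4-1BB, rose by 1.01 (adjusted p = 0.00848, 0.0571 without GFP 2).

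Integrins and adhesion genes moved both ways, 4 of 16 up and 5 down, beside 9.68% and 2.43% of all tested genes. Beside the decreases of Itgb2, Itgb7 and Adgre5 given above, Selplg, the ligand of P-selectin, fell by 0.69 and Itgb5 by 0.61, with an adjusted p of 0.106 without GFP 3 for Selplg and 0.0960 without GFP 1 for Itgb5. Icam1, the endothelial and leukocyte ligand of the Itgb2 integrins, gave 7.61, 7.97, 8.38 and 8.33 on AE arrays, against 6.33, 6.19 and 6.10 on GFP arrays, 3.63-fold higher (adjusted p = 0.00153). Itga6, a laminin receptor chain, gave 9.83, 10.65, 10.75 and 10.37 on AE arrays and 9.13, 8.79 and 8.82 on GFP arrays (difference 1.49, SE 0.22, adjusted p = 0.00403). Itgav rose by 1.18 (adjusted p = 0.012, 0.0635 without GFP 2) and Itga4, below background in GFP GMP, was at least 1.13-fold higher (adjusted p = 0.0357, 0.130 without GFP 2). Itgb1, their common partner chain, differed by 0.74 (adjusted p = 0.0825), and Itgal and Itgam, partners of Itgb2, did not pass (adjusted p = 0.455 and 0.166), with means near or under background. Within tag A 2 genes were called higher and 4 lower.

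C/EBP factors drive granulocyte differentiation, and Cebpa, which GMP need in order to form, was lower. It gave 8.06, 7.89, 6.99 and 7.61 on AE arrays, against 9.28, 8.92 and 9.04 on GFP arrays (difference −1.44, SE 0.24, adjusted p = 0.00669). Every AE array lay below every GFP array, as for 6.95% of all tested genes, and the difference of Cebpa was −1.02 within tag A. Cebpg fell by 0.58 (adjusted p = 0.0251, 0.130 without GFP 2). Cebpd gave 8.20, 8.29, 7.38 and 8.08 on AE arrays and 8.74, 8.95 and 8.46 on GFP arrays and did not pass (difference −0.73, SE 0.23, adjusted p = 0.0704). Cebpb, the factor of emergency granulocyte production, did not pass on its brightest probe set (difference 0.36, SE 0.14, adjusted p = 0.133), and a dimmer one averaged 8.74 in AE GMP and 8.12 in GFP GMP (adjusted p = 0.0199). Ddit3, the stress-induced member, differed by 0.57 (adjusted p = 0.0965). Of 8 tested genes described elsewhere as AML1-ETO targets, Cebpa fell and Csf1r, Id1 and Cd34 rose. Of all tested genes 2.43% fell and 9.68% rose. Id1, an inhibitor of helix-loop-helix factors, read 7.78 on AE 1 and 8.86 to 9.31 on the other AE arrays, against 7.55 to 7.67 on GFP arrays (adjusted p = 0.0432), and its adjusted p was 0.491 within tag A and 0.161 without GFP 2.

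Genes of the primary granules, the enzymes that promyelocytes store, were lower in 4 of 14 tested members and higher in 1. Of all tested genes 2.43% were lower and 9.68% higher. Elane, neutrophil elastase, gave 11.85, 12.69, 12.34 and 11.93 on AE arrays, against 13.35, 13.35 and 13.02 on GFP arrays (difference −1.03, SE 0.22, adjusted p = 0.0166). Mpo, myeloperoxidase, averaged 12.64 ± 0.28 in AE GMP and 13.31 ± 0.13 in GFP GMP (adjusted p = 0.0401), Ms4a3 averaged 10.88 ± 0.47 and 12.01 ± 0.03 (adjusted p = 0.0165), and Gstm1, a glutathione transferase gene kept in this list, averaged 10.14 ± 0.27 and 11.31 ± 0.32 (adjusted p = 0.00735). Lyz2, lysozyme of both granulocytes and monocytes, was the member that rose, 13.39 ± 0.17 in AE GMP against 12.63 ± 0.10 in GFP GMP (adjusted p = 0.0116, 0.0717 without GFP 2). Prtn3 and Ctsg differed by −0.34 and −0.17 (adjusted p = 0.184 and 0.511). Without GFP 2 the adjusted p was 0.0885 for Elane, 0.164 for Mpo and 0.0772 for Ms4a3. With the tag as a factor Elane differed by −1.26 (SE 0.51, adjusted p = 0.116) and Ms4a3 by −1.37 (SE 0.51, adjusted p = 0.0876). Within tag A the differences of Elane, Mpo, Ms4a3 and Gstm1 were −1.39, −0.94, −1.62 and −1.55. Gfi1, a repressor that granulocyte development needs, fell by 0.90 (adjusted p = 0.0305, 0.127 without GFP 1). Of 18 tested secondary granule and neutrophil maturation genes, Ifitm6 and Anxa1 fell and 0 rose, and Ltf and Camp, the classical members, differed by 0.03 and 0.84 (adjusted p = 0.973 and 0.183). In samples of bulk RNA, fewer cells of a type and less RNA per cell cannot be told apart.

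Monocyte and macrophage genes were higher in 6 of 23 tested members and lower in 1, beside 9.68% and 2.43% of all tested genes. Their median of 0.06 is near that of all genes. The 6 were Cd14 and Csf1r, given above, the Toll-like receptors Tlr2 and Tlr4, the lysosomal marker Cd68 and the scavenger receptor Cd36. Tlr2 gave 8.41, 8.92, 9.56 and 9.31 on AE arrays, against 7.88, 8.27 and 7.98 on GFP arrays (adjusted p = 0.0347). Cd36 gave 4.05, 6.59, 6.06 and 5.26 on AE arrays, so only AE 2 and AE 3 passed background, against 3.65, 3.55 and 3.57 on GFP arrays (adjusted p = 0.0359). Klf4, a monocyte factor, was the member that fell, to 6.48 ± 0.31 in AE GMP, against 7.36 ± 0.41 in GFP GMP (adjusted p = 0.0374), with AE 3 (6.90) level with GFP 2 (6.89). Adgre1, the F4/80 antigen, differed by 0.26 and Mpeg1 by −0.33. Without GFP 1 the adjusted p of Tlr2, Klf4 and Csf1r was 0.132, 0.152 and 0.0826, and without GFP 2 that of Cd36, Tlr4 and Cd68 was 0.137, 0.143 and 0.187. Without any one of the GFP arrays 1 gene of the list was called higher, and 8 were without AE 1. Within tag A 2 genes were called higher and 2 lower. Macrophage markers fixed for the check of cell types summed to 13.52 to 14.13 on AE arrays and 13.21 to 13.41 on GFP arrays. Of those 9, Marco lay below 60 on all 7 arrays, and the part of such cells in these results was not tested.

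Among stem cell genes, Cd34, the surface marker of early progenitors, gave 8.64, 9.78, 9.30 and 9.55 on AE arrays, against 7.40, 7.23 and 7.39 on GFP arrays, 3.94-fold higher (adjusted p = 0.00192). Sox4, a factor of progenitors, gave 6.45, 7.16, 7.30 and 7.13 on AE arrays and 5.74, 4.64 and 5.42 on GFP arrays, at least 2.15-fold higher (adjusted p = 0.00574), and 2 of its 3 tested probe sets rose. Within tag A its adjusted p was 0.0733. Lyl1, a helix-loop-helix factor, rose by 0.85 (adjusted p = 0.00921, 0.0579 without GFP 2). Mycn, a member of the Myc family, fell to 12.56 ± 0.32 in AE GMP, against 13.41 ± 0.27 in GFP GMP (adjusted p = 0.0305, 0.116 without GFP 1), while Mxd4, an antagonist of Myc, rose to 8.85 ± 0.18 in AE GMP, against 7.17 ± 0.36 in GFP GMP (adjusted p = 0.00154). Procr, a marker of stem cells, read 4.38 on AE 1 and 6.56 to 7.68 on the other AE arrays, against 4.23 to 4.61 on GFP arrays, and did not pass (adjusted p = 0.0701). Of 12 tested stem cell factors 2 rose and 1 fell, beside 9.68% and 2.43% of all tested genes. Gata2, Erg and Hoxa7 differed by 0.60, 0.05 and −0.05.

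The arrays of uninfected LSK cells and GMP, which are in no AE or GFP group, give the place of these genes in normal cells. LSK cells differed from GMP in 1173 of 7138 genes (16.4%), 797 higher (11.2%) and 376 lower (5.27%). Single arrays moved this count to 529, 604 and 738 without LSK 1, 2 and 3, to 669 without GMP 1 and to 1862 without GMP 2, and quantile normalization gave 975 higher and 885 lower. The overlap with the AE genes carries no test. Of 595 genes that rose in AE GMP and were tested in both, 181 (30.4%) were also higher in LSK cells than in GMP, which is 27.5% of the 659 LSK genes, beside 9.72% of all 6779 genes tested in both. A further 18 (3.03%) were lower in LSK cells, beside 5.49% of all. Of 163 genes that fell in AE GMP, 50 (30.7%, and 13.4% of the 372 genes lower in LSK cells) were lower in LSK cells as well, and 19 (11.7%) were higher. Cd34 was at 10.91 ± 0.15 in LSK cells (SD, n = 3) and 9.65 ± 0.43 in GMP (SD, n = 4), Ctla2a at 10.64 ± 0.08 and 6.52 ± 1.08, and Ctla2b at 9.89 ± 0.16 and 6.02 ± 1.05. Sox4 was at 9.74 ± 0.15 in LSK cells and 7.98 ± 0.44 in GMP. In AE GMP Cd34 averaged 9.32 and Sox4 7.01, against 7.34 and 5.27 in GFP GMP. The AE means of both thus did not exceed those of uninfected GMP. Cebpa was at 7.58 ± 0.15 in LSK cells and 8.72 ± 0.28 in GMP, and Elane at 11.26 and 13.30. Serpinb2, Arg1 and Ppbp, in contrast, lay under background both in LSK cells (2.84, 3.11 and 4.63) and in GMP (2.64, 3.31 and 4.11). Itgb2 was at 7.96 ± 0.17 in LSK cells and 8.23 ± 0.31 in GMP (adjusted p = 0.395). Among the largest decreases, Cd244a, Itgb7, Tspan32, Nfe2 and Arhgef18 were called higher in LSK cells than in GMP. Their differences were 1.75, 1.13, 1.11, 1.11 and 1.06. Tfrc and Tuba8 were called lower, with −0.51 and −0.92, and the others tested were not called. Hdc and Cd14 rose in AE GMP and were lower in LSK cells than in GMP, with differences of −2.59 and −1.06.

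Genes of DNA replication and S phase had a median difference of −0.54 over 31 tested members. Of these 6 fell and 0 rose, beside 2.43% and 9.68% of all tested genes. Mcm6, a subunit of the replicative helicase, gave 9.75, 9.90, 9.80 and 10.50 on AE arrays, against 10.84, 11.02 and 10.90 on GFP arrays (difference −0.94, SE 0.19, adjusted p = 0.0159). Mcm4 of the same helicase averaged 9.61 ± 0.19 in AE GMP and 10.39 ± 0.19 in GFP GMP (adjusted p = 0.0157), and Dut, which clears dUTP, averaged 9.26 ± 0.43 and 10.22 ± 0.12 (adjusted p = 0.0269). Rrm2, which makes deoxynucleotides, Cdc45, which activates the helicase, and Uhrf1, which maintains DNA methylation, fell by 0.79, 0.89 and 0.75. Pcna, the sliding clamp, gave 9.70, 11.51, 11.24 and 11.36 on AE arrays and 12.09, 12.39 and 11.98 on GFP arrays, and did not pass (adjusted p = 0.0726). AE 1 was thus far below the other AE arrays for Pcna. All 31 differences were below 0. Within tag A the median was −0.76. With the tag as a factor 13 of the 31 were called lower, after quantile normalization 12 and without AE 1 9. Without GFP 2, however, 0 were called, when the adjusted p of the 6 genes reached 0.0880 to 0.191. Of 31 tested genes of G2 and mitosis, Mki67, Top2a and Ect2 fell, by 0.61, 0.72 and 0.79, with an adjusted p of 0.163, 0.178 and 0.148 without GFP 2, and 0 rose (median −0.24). Among cyclins and Cdk inhibitors, Ccnd3 averaged 7.68 in AE GMP and 8.50 in GFP GMP and Ccne2 5.53 and 6.58, and neither passed (adjusted p = 0.0645 and 0.0536), and Cdkn1a, the inhibitor p21, differed by 0.13.

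Iron genes split. Tfrc, the transferrin receptor, gave 7.97, 9.01, 8.74 and 9.03 on AE arrays, against 10.34, 10.64 and 10.05 on GFP arrays (difference −1.66, SE 0.26, adjusted p = 0.00526), although only 1 of its 2 tested probe sets passed. Hmox1, heme oxygenase, gave 11.28, 9.95, 9.87 and 10.49 on AE arrays and 9.01, 8.78 and 8.78 on GFP arrays (difference 1.54, SE 0.30, adjusted p = 0.0128, 0.0679 without GFP 2). AE 1 was the most changed array for both genes. Slc40a1, the iron exporter ferroportin, fell by 1.31 (adjusted p = 0.024, 0.104 without GFP 2), Slc11a1, a metal transporter of phagosomes, was at least 1.63-fold lower (adjusted p = 0.0386, 0.140 without GFP 2), and Aco1, which senses iron, rose by 0.54 (adjusted p = 0.0308, 0.161 without GFP 2).

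Markers of other cell types were read to see what else the samples held. All 8 mature neutrophil markers on the array averaged above 60 in both groups. They summed to 14.81 to 15.02 on AE arrays and 14.89 to 15.11 on GFP arrays, and 0 were called. Eosinophil markers summed to 8.07 to 8.67 on AE arrays and 7.99 to 8.47 on GFP arrays. Of these, Prg2 and Siglecf lay above 60 on every AE array, and Prg3, Epx and Il5ra below 60 on all 7. LSK markers summed to 7.84 to 8.60 on AE arrays and 7.68 to 7.73 on GFP arrays. Megakaryocyte markers summed to 11.53 to 13.17 on AE arrays and 9.24 to 10.02 on GFP arrays, and 2 of 10 rose, Pf4 and Ppbp. The platelet glycoproteins Gp1bb and Gp5, Vwf, Gata1 and Clec1b lay below 60 on all 7 arrays, Itga2b differed by 0.13, and Nfe2 fell. Mast cell and basophil markers summed to 9.74 to 10.73 on AE arrays and 9.19 to 9.34 on GFP arrays. Hdc, which makes histamine, gave 8.10, 9.13, 9.41 and 9.81 on AE arrays, against 7.41, 7.54 and 7.76 on GFP arrays (adjusted p = 0.0197), and Cpa3, mast cell carboxypeptidase, gave 7.15, 8.85, 7.07 and 8.42 on AE arrays and 5.97, 6.40 and 6.06 on GFP arrays (adjusted p = 0.0269). Mcpt8 and Gata2 of the same markers were not called but lay above 60 on every AE array, as did Hdc and Cpa3. The receptor chains Ms4a2 and Fcer1a and the proteases Cma1 and Tpsb2 lay below 60 on all 7 arrays, while Fcer1g fell by 0.88 and Mitf rose by 0.76. Without GFP 2 or GFP 1 these calls were lost (adjusted p = 0.0880 for Hdc, 0.103 for Cpa3, 0.130 for Fcer1g and 0.177 for Mitf). Within tag A the differences were 0.53, 1.01, −0.61 and 0.36 in the same order. With the tag as a factor the decrease of Fcer1g alone of the 4 passed (adjusted p = 0.0436). The adjusted p was then 0.132 for Hdc, 0.167 for Cpa3 and 0.205 for Mitf. Lymphoid markers summed to 6.75 to 6.99 on AE arrays and 6.92 to 7.15 on GFP arrays, with Cd79a, Pax5, Ebf1 and Rag1 below 60 throughout. Cd79b, a chain of the B cell receptor complex, nonetheless gave 8.45, 8.17, 7.97 and 8.02 on AE arrays and 6.84, 6.39 and 7.37 on GFP arrays (adjusted p = 0.00848). Tcf4, an E protein of plasmacytoid dendritic cells, averaged 8.92 ± 0.21 in AE GMP and 7.16 ± 0.29 in GFP GMP (adjusted p = 0.00137). Pdpn, a membrane glycoprotein with the widest spread of the called genes shown here after Serpinb2 and Ctla2a, gave 6.16, 7.37, 8.16 and 8.93 on AE arrays and 5.21, 5.42 and 5.20 on GFP arrays (adjusted p = 0.0194, 0.0746 without GFP 1). The part of other cell types in these results was not tested.

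Contrasts with the other oncogenes show where AE GMP stood apart from them rather than from the vector. They use the same 4 AE arrays by which genes were named, so for those genes they are a description and no replication. AE GMP differed from MT2 GMP in 2135 genes (30.1%), 1273 higher (17.9%) and 862 lower (12.1%), and from NHA9 GMP in 575 (8.1%), 362 higher (5.1%) and 213 lower (3%). The tag again bore on this: 3 of 4 MT2 arrays and 2 of 3 NHA9 arrays carry tag A, and with the tag as a factor there were 915 higher and 1280 lower genes against MT2 GMP, and against NHA9 GMP the count was 218, 89 higher and 129 lower. After quantile normalization the split against NHA9 GMP was 359 higher and 328 lower. The count of 575 against NHA9 GMP was 298 without NHA9 1, 312 without NHA9 2, 354 without AE 3 and 918 without AE 1. Serpinb2 was at 3.35 ± 0.44 in MT2 GMP (n = 4) and 3.33 ± 0.51 in NHA9 GMP (n = 3), both under background, so that AE GMP was at least 8.55-fold higher than either (adjusted p = 1.15e-05 and 0.000104). Ctla2a, under background in both as well, was at least 11.7-fold higher in AE GMP, and Icam1 was higher by 2.02 and 1.63. Itgb2 was lower in AE GMP than in MT2 GMP by 0.91 (adjusted p = 0.00185) and than in NHA9 GMP by 1.88 (adjusted p = 0.000104), Cebpa by 1.71 and 1.55 (adjusted p = 2.6e-05 and 0.000387), and Nfe2 by 1.72 and 1.26. Arg1 was at 12.04 ± 0.57 in AE GMP, 5.88 ± 1.76 in MT2 GMP and 9.92 ± 0.61 in NHA9 GMP, under background in MT2 GMP (adjusted p = 2.6e-05), with a difference of 2.12 (SE 0.71, adjusted p = 0.0913) from NHA9 GMP. Pf4 differed from NHA9 GMP by 1.85 (SE 0.66, adjusted p = 0.111), Bcl3 by −0.03 (SE 0.14) and Mpo by −0.30 (SE 0.15, adjusted p = 0.291). Against MT2 GMP the differences were −0.18 (SE 0.57) for Cd244a, −0.22 (SE 0.30) for Itgb7 and 0.18 (SE 0.14) for Lyl1. Sox4 was lower in AE GMP than in MT2 GMP by 1.53 (adjusted p = 0.00297), and Mycn was higher by 1.99 (adjusted p = 0.000103).

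**Figure D4:**
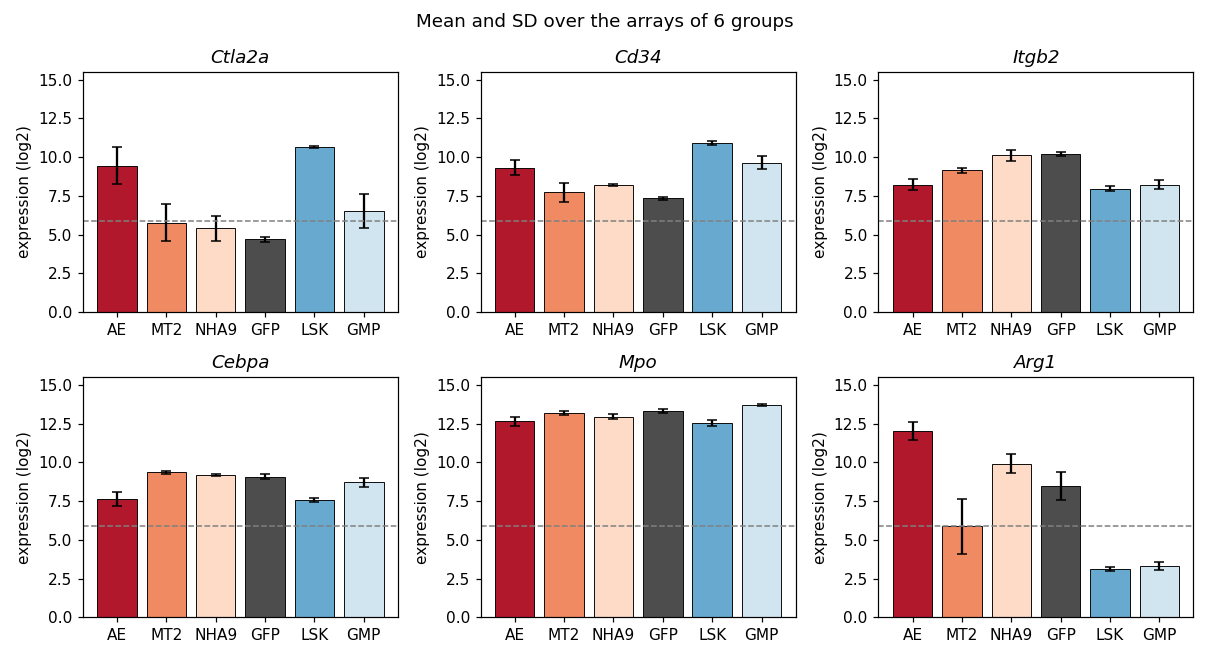
Mean log2 expression with SD over arrays (bars start at 0; n = 4 for AE, MT2 and GMP, n = 3 for NHA9, GFP and LSK) of 6 genes in the 4 infected groups and in uninfected LSK cells and GMP. The dashed line is the background level of 5.91. Ctla2a and Cd34 stand higher in AE GMP than in the other infected groups, Itgb2 and Cebpa stand lower, and Arg1 is under background in LSK cells and GMP.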

How the data were processed

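RNA of each sample was hybridised to 1 Affymetrix Mouse 430A 2.0 array with 1 colour. The authors deposited log2 values for 22690 probe sets, made with GCRMA 2.4.1, per the submitters' processing notes, which also name MAS5. The values ran from 1.72 to 14.39, and the medians of the 7 arrays from 5.70 to 5.76, so no further normalization was applied. The number of arrays limits the precision.

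After 64 control probe sets were left out, 20380 probe sets had 1 gene symbol, 691 several and 1555 none by the platform annotation, and only the first were named. A gene stood for its probe set with the highest mean over 24 arrays, which gave 12393 genes. Probe sets above 60 on at least 2 arrays of a compared group were tested with limma 3.58.1 in R 4.3.3. Benjamini-Hochberg adjustment ran over all tested probe sets, with a threshold of 0.05. AE GMP against GFP GMP and LSK cells against GMP were fitted on the arrays of both groups. AE GMP against MT2 GMP or NHA9 GMP was fitted on the 14 infected arrays. Adjusted p-values in the text are from these limma fits. Where the mean of a group lay under 60, the fold is a lower bound, taken against 60. The code was tested on simulated data.

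The labels share replicate numbers between groups. Deviations of same-numbered samples correlated at −0.09, −0.08 and −0.32, so samples were not treated as pairs. The members, the gene lists and the tests were chosen with earlier results of these data known. Named were the 15 largest increases and decreases without overlap, oncogene partners and C/EBP factors, up to 5 members of each list with at least 25% of its tested members past the threshold, the 5 called genes with the widest AE spread and called markers of other cell types. Other list members named were chosen after their values were seen. Promoter windows are those of RefSeq, GRCm38.p6.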

Additional observations from a re-analysis of the deposited data

Results flagged for a closer look

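Among the 99 genes named by rule, 4 had 1 array outside the spread of its own AE group, and about 5% of groups are picked out by chance. In 3 of them the array was AE 1. Gpx3 read 8.26 on AE 1 and 9.86 to 9.92 on the other AE arrays, Ptprf read 7.34 against 8.12 to 8.26, and Il7r read 5.43 against 6.25 to 6.37. Ppp1r15a read 7.85 on AE 3 and 7.50 to 7.55 on the other AE arrays. The 4 flagged genes are not above the 5.0 expected by chance. Over the arrays as a whole, AE 1 lay at −3.4 on the first principal component, against −30.1 to −25.7 for the other AE arrays. On the second it lay at 43.6, against −10.8 to −6.5. AE 1 is the AE array with tag A in its file name, as are all GFP arrays, so the tag and the replicate cannot be told apart here.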

How the results depend on the processing

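Counts of called genes depended on single arrays and on the tag. With single arrays left out, AE GMP against GFP GMP gave 231 to 2016 genes, 180 to 1488 higher and 51 to 528 lower. The same ranges were 298 to 918 genes for AE GMP against NHA9 GMP and 529 to 1862 for LSK cells against GMP. The tag as a factor gave 410 higher and 458 lower genes in AE GMP than in GFP GMP (47.2% higher, against 79.9% without it), 218 against NHA9 GMP, and 1939 for LSK cells against GMP. Within tag A 695 were lower (41.7% of calls higher). Quantile normalization gave 315 lower genes (60.1% of calls higher) and 1860 for LSK cells against GMP. A fit over the 14 infected arrays called 1325 genes, 1036 higher and 289 lower. The methods' t-test called 0 after adjustment and 1816 before it, where limma had 2174. With the replicate number as a block, over 3 pairs whose numbers do not pair the samples, 288 genes were called, 211 higher and 77 lower. Filters, the intensity trend and the mean over probe sets changed the count by less than 1.5 times. Sign changes touched partner genes that had not passed: Runx1 differed by −0.02 within tag A, Runx3 by 0.07 with the tag as a factor and 0.23 within tag A, and Kat6a by −0.01 after quantile normalization, −0.22 with the tag as a factor and −0.21 within tag A. Of the 88 called genes named by rule, 46 passed with each array left out. The causes were not tested.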

Other observations

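Some lists outside the comparisons above held single genes that changed, to be read beside 9.68% of all tested genes higher and 2.43% lower. Of 25 tested genes of the ATF4 and unfolded protein responses, Slc7a11 and Xbp1 rose (8%) and Nars and Hsp90b1 fell (8%), with a median of −0.37. Slc7a11, the cystine importer, gave 7.65, 7.47, 7.29 and 7.52 on AE arrays, against 6.28, 6.39 and 6.36 on GFP arrays (difference 1.14, adjusted p = 0.0019). Hsp90b1, a chaperone of the endoplasmic reticulum, gave 9.61, 10.16, 10.17 and 10.15 on AE arrays and 11.13, 11.25 and 10.90 on GFP arrays (difference −1.08, adjusted p = 0.00669). The groups did not overlap for either gene, as for 28% of all tested genes. Xbp1 differed by 0.52 and Nars by −0.70, and their adjusted p was 0.153 without GFP 2. Lysosomal genes had 3 of 20 higher, Ctsa, Glb1 and Npc1, with an adjusted p of 0.117, 0.195 and 0.0552 without GFP 2, and 0 called higher within tag A (limma). Of p53 and Bcl2 family genes, Pmaip1, a BH3-only protein that promotes cell death, rose 3.01-fold (adjusted p = 0.00294), Sesn1 by 0.87 on the log2 scale and Bad by 0.70, with an adjusted p of 0.150 and 0.118 without GFP 2.

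Other lists changed in single members, beside 9.68% of all tested genes higher and 2.43% lower. The called shares were 4.76% higher and 4.76% lower for interferon genes and 8.7% higher for glycolysis and hypoxia genes. H2-Ab1 and H2-DMa of MHC class II rose by 0.69 and 0.91, with an adjusted p of 0.191 and 0.204 without GFP 2. Cxcl10 rose and Ifitm3, an antiviral membrane protein, fell by 0.99 (adjusted p = 0.129 without GFP 2) among 21 interferon genes. Dvl1 of the Wnt pathway rose by 1.17 (adjusted p = 0.00281) and Gsk3b was at least 1.39-fold higher (adjusted p = 0.0187, 0.108 without GFP 2). P4ha2, a collagen prolyl hydroxylase, rose at least 4.02-fold (adjusted p = 0.0124, 0.0562 without GFP 2) and Aldoc by 1.15 (adjusted p = 0.137 without GFP 2) among 23 glycolysis and hypoxia genes.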
